A study of Homo sapiens with 18 samples.

Results

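The genes described here are 42 components of the transforming growth factor beta (TGF-beta) and bone morphogenetic protein (BMP) pathways, out of 58051 genes in the expression tables: 10 ligands, 10 receptors, 6 receptor-regulated or common SMADs, 6 inhibitory SMADs and other pathway inhibitors, 4 latency proteins, 2 secreted antagonists and 4 target genes. They were chosen as a list of named genes and matched by symbol to their Ensembl identifiers. RNA sequencing was performed on NCI-H460, an established large-cell lung carcinoma line of human origin, and the labels give the genotype of every library as wild-type. The 3 populations were the parental cells, here called parental, and 2 populations, numbered resistant 1 and resistant 2, that resist the combination of all-trans retinoic acid (ATRA) and decitabine. Cells of each population received DMSO alone (0.7% v/v) or 2 µM ATRA with 50 µM decitabine at 24 h after seeding and were lysed at 72 h, with 3 biological replicates for each of the 6 groups and 18 libraries in all. ATRA is a vitamin A metabolite that binds nuclear retinoic acid receptors, and decitabine is a nucleoside inhibitor of DNA methylation. How each resistant population was derived, and whether it is a clone, is not given in the sources used here, so each comparison is between particular populations. The labels call the replicates biological and do not say what separates them, so p-values measure the spread between these libraries.

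TGF-beta family ligands are secreted dimers that bind pairs of type I and type II receptor kinases. TGF-beta and activin receptors phosphorylate SMAD2 and SMAD3, BMP receptors phosphorylate SMAD1, SMAD5 and SMAD9, and both sets enter the nucleus with the common partner SMAD4. The inhibitory SMADs, the pseudoreceptor BAMBI and the ID genes are among the transcripts that signalling through the pathway induces, which makes them common readouts of it. In epithelial cancers TGF-beta is known both for restraining proliferation and for promoting mesenchymal traits.

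Libraries of 1 treatment are compared in normalized counts (reads scaled to library depth within a table), and libraries of both treatments in CPM (reads scaled to a library total that TMM had adjusted for composition). Depth was 116.9 to 140.9 M reads in the DMSO libraries and 116.7 to 181.0 M reads, over the genes with usable values, in the treated ones. As deposited, the treated values had lost their decimal points, and a gene was used only where its values could be restored with a posterior probability of at least 99%. Of the 42 genes, 41 were tested with DMSO and 40 had usable treated values. BMP4 was tested with DMSO alone, since its restoration reached a posterior of 91.4%. GREM1 was not tested: it had 0 reads in all 9 DMSO libraries, where 3 reads, the limit that a count of 0 allows, equal at most 0.0283 CPM in a library. Its treated values reached a posterior of 97.66%, under the limit of 99%, and were not used, so its level with treatment is not known here. The labels give the cells as epithelial. Keratins 8, 18 and 19 were abundant, while CDH1 (E-cadherin) was at 0 to 2.17 normalized counts in every DMSO library. Of 7 epithelial markers, 6 stood at 10 or more normalized counts in parental DMSO cells and 5 of 7 in each resistant population. Their summed level was 223784 to 270157 in parental, 300122 to 436431 in resistant 1 and 137200 to 205679 in resistant 2 libraries. These sums were almost wholly those of keratins 8, 18 and 19, and single markers differed in order. In parental, resistant 1 and resistant 2 cells, means were 87429, 116834 and 78253 for KRT8 and 80345, 51024 and 53115 for KRT18. They were 84570, 188443 and 31026 for KRT19 and 796, 701 and 1032 for KRT7. EPCAM (93.5, 3.90 and 3.88) and CLDN7 (628, 90.3 and 19.0) were lower in both resistant populations. Of 8 fibroblast markers, 5 stood at 10 or more in each population, with summed levels of 8082 to 10046, 491 to 556 and 3493 to 4486. These 5 did not move together. COL3A1 (means of 6475, 28.2 and 456 in the same order) and LUM (1409, 58.5 and 41.1) were highest in parental cells. COL1A1 (820, 26.9 and 2195) and PDGFRB (621, 286 and 1167) were highest in resistant 2, and DCN (21.8, 117 and 31.9) in resistant 1. THY1 was at 0 in resistant 2, and COL1A1 is also in a list of pathway response genes below. The 6 fibroblast markers with treated values summed to 13368 to 14460.2, 1491 to 1842 and 8116 to 11047. The number of the 5 endothelial markers that reached 10 was 1, 3 and 4 in the same order, with sums of 66.1 to 90.9, 327 to 429 and 142 to 267, and CDH5 was at 0 in parental cells. Immune markers reached 10 in 1, 2 and 3 of 6, with sums of 176 to 397, 90.06 to 160.3 and 37.3 to 103.7, and CD3E was at 0 in parental cells. With treatment the 2 immune markers that had usable values, CD14 and MS4A1, summed to 4492 to 5253 in parental, 1306 to 1983 in resistant 1 and 104 to 352 in resistant 2 libraries. These sums were almost wholly those of the single gene CD14. MS4A1 was at 0 to 0.883 in treated parental libraries and at 0 in both treated resistant populations. The part of these markers in the results below was not tested.

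Promoter sequences are shown for 4 genes that differed between the populations, 2 with many and 2 with few CG dinucleotides, the sites of the DNA methylation that decitabine inhibits. Each is the 250 bases before the transcription start in RefSeq (GRCh38.p14), written 5′ to 3′ on the gene's strand with every CG in capitals. INHBB (chr2:120345886-120346135, plus strand) held 46 CG dinucleotides and BAMBI (chr10:28677271-28677520, plus strand) held 41. BMP5 (chr6:55875591-55875840, minus strand) and INHBA (chr7:41703091-41703340, minus strand) held 1 each.
INHBB: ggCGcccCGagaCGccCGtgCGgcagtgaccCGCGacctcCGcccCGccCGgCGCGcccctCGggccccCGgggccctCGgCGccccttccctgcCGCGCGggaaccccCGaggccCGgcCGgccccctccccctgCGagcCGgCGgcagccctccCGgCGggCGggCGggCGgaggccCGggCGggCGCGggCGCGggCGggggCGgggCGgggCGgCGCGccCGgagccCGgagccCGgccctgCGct
BAMBI: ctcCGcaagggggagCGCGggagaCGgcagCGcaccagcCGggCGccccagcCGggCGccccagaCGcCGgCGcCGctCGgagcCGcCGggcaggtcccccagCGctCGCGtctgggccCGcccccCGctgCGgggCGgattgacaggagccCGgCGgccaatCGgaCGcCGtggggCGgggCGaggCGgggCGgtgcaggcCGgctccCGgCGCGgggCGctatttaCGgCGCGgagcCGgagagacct
BMP5: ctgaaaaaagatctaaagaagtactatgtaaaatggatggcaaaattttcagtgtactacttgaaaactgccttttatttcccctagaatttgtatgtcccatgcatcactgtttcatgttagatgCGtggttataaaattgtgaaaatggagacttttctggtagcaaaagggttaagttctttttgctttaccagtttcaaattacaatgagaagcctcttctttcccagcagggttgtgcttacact
INHBA: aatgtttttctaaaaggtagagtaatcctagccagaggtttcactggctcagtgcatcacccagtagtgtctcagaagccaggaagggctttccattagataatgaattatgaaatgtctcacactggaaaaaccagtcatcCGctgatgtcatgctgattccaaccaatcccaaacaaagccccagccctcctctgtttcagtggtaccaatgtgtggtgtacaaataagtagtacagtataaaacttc

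Such promoters were found for 39 of the 42 genes, and BMP2, BMP7 and NOG were not in the table. The median was 25 CG dinucleotides in these 39 against 11 in all 35116 promoters of the table. A single start was used for each gene, and other starts were not examined. The window of INHBA lies inside the gene's span in GENCODE (41667168 to 41705834), as do those of several other genes, such as BMP4 and ID2. All CG counts and motif matches here hold for these single windows. Letters were searched on both strands. The GC-rich BMP SMAD motif GGCGCC, which reads the same on both strands, was present in 13 of 39 (33.3%) against 16.4% of all promoters, among them INHBB and BAMBI. This motif itself contains a CG, and the 39 promoters hold more CG than the whole set. Its share was not compared with that of promoters of like CG content, so no enrichment can be read from it. The SMAD box with its flank, CAGACA, was present in 5 of 39 (12.8%) against 13.6%. AGGTCA, a single unit of a retinoid receptor site, was present in 3 of 39 (7.69%) against 12.1%. Spaced repeats of this unit were not searched, so complete retinoid receptor sites were not counted. These motifs share no run of letters longer than 3 bases, and a match is only a description of the sequence.

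With DMSO, resistant 2 cells had higher levels of most of the pathway's transcripts, while resistant 1 cells were divided between higher and lower. In resistant 2, 29 of 41 genes were called higher than in parental cells and 4 lower (limma, Benjamini-Hochberg adjusted p under 0.05), beside 32.1% and 29.8% of all 21643 genes tested. Their median log2 fold change was 1.48, against 0.019 over all genes. In resistant 1, 18 were higher and 15 lower, beside 29.3% and 26.6% of all genes, with a median of 0.28 against 0.0064. Between the resistant populations, 29 of 41 genes were lower in resistant 1 than in resistant 2 and 4 were higher, beside 26% and 27.4% of all genes. In bulk RNA, fewer expressing cells and less RNA per cell cannot be told apart. Both resistant populations were set against the same 3 parental libraries, so their values are given side by side. In the plot of log2 fold changes by role, the points of resistant 2 lie to the right of those of resistant 1 for most genes, and the largest departures among the SMADs, inhibitors and targets are those of resistant 2. The count of 4 genes lower in resistant 2 rested on few libraries: it was 1 without parental replicate 3 or without resistant 2 replicate 3, and 2 without resistant 2 replicate 2.

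**Figure D1:**
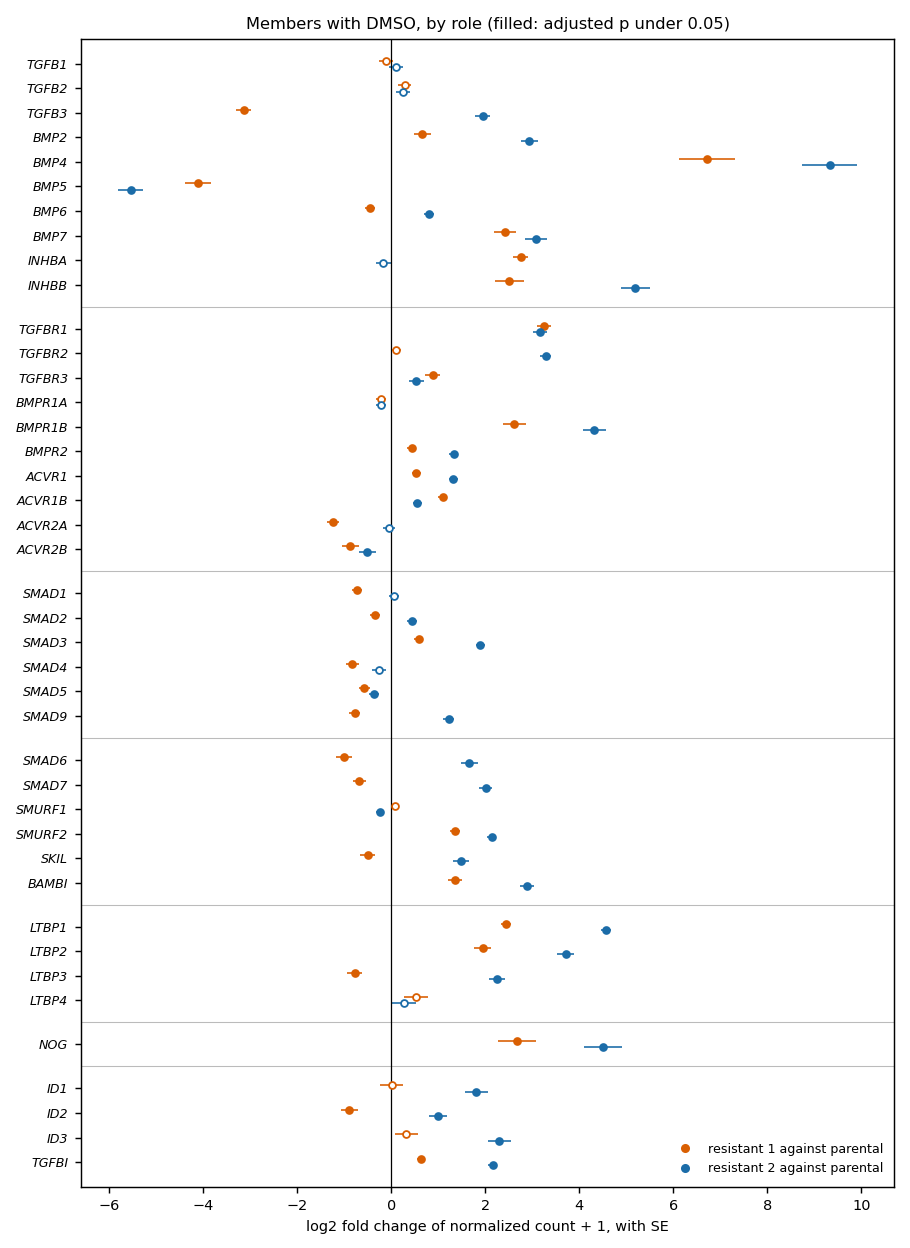
Log2 fold change of normalized count + 1 with its SE (horizontal axis) for 41 genes (rows, grouped by role, lines between roles), resistant 1 (orange) and resistant 2 (blue) against parental cells with DMSO, n = 3 libraries a group; filled points passed an adjusted p of 0.05. In resistant 2, 29 genes lie to the right as filled points and 4 to the left.

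Among the 10 ligands, 6 were higher and 1 lower in resistant 2, beside 32.1% and 29.8% of all genes. Resistant 1 had 5 higher and 3 lower, beside 29.3% and 26.6%. BMP4 (ENSG00000125378, chromosome 14, 53949736 to 53958761, GRCh38), a BMP ligand, had 2 reads over the parental libraries, at 1.97, 0 and 0 normalized counts. It stood at 138, 139 and 179 in resistant 1 and at 329.7, 1262 and 1872 in resistant 2. All 6 resistant libraries were above all parental ones, and resistant 2 replicate 1 was far below the other replicates of its group. From the reads, the ratio to parental cells was 226 in resistant 1 (95% exact interval 62.1 to 1868) and 1701 in resistant 2 (470.4 to 14050), intervals that cover counting error alone.

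BMP2 (ENSG00000125845, chromosome 20, 6767664 to 6780280), another BMP ligand, stood at 398, 543 and 713 normalized counts in parental, 839, 859.7 and 845 in resistant 1 and 3744, 4436 and 4175 in resistant 2 libraries. The 3 populations did not overlap, with resistant 2 highest and resistant 1 just above parental cells. The log2 fold change was 0.66 ± 0.18, adjusted p = 0.00885, in resistant 1 and 2.94 ± 0.18, adjusted p = 1.24e-07, in resistant 2. BMP7 was present at 66.0, 83.3 and 48.7 normalized counts in parental, 354, 331 and 362 in resistant 1 and 421, 570.3 and 706 in resistant 2 libraries. It rose in both resistant populations without overlap, by 2.42 ± 0.23, adjusted p = 5.97e-06, and 3.08 ± 0.23, adjusted p = 6.11e-07. INHBB (ENSG00000163083, chromosome 2, 120346143 to 120351808), which encodes the beta B subunit of activin and inhibin and whose CG-rich promoter is printed above, had 5.91, 9.58 and 14.1 normalized counts in parental libraries. It stood at 50.3, 61.0 and 63.7 in resistant 1 and 267, 435 and 463 in resistant 2, without overlap among the populations. Its log2 fold changes were 2.52 ± 0.31, adjusted p = 4.66e-05, and 5.20 ± 0.31, adjusted p = 1.14e-07.

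For INHBA and TGFB3 the resistant populations departed from each other. INHBA (ENSG00000122641, chromosome 7, 41667168 to 41705834), the beta A subunit of activin, stood at 864, 994 and 1189.6 normalized counts in parental and 1049.7, 853 and 804 in resistant 2 libraries, which overlapped. Resistant 1 libraries had 5580.2, 7411 and 7630.4, far above both, and resistant 1 exceeded resistant 2 by 2.92 ± 0.16, adjusted p = 9.00e-08. TGFB3 (ENSG00000119699, chromosome 14, 75958099 to 75982991), the third TGF-beta ligand, was at 709, 679.9 and 649 normalized counts in parental cells. It was at 62.5, 90.1 and 78.2 in resistant 1 and 3071, 2413 and 2407 in resistant 2, the former below and the latter above every parental library. The log2 fold changes were -3.14 ± 0.16, adjusted p = 4.28e-08, in resistant 1 and 1.94 ± 0.16, adjusted p = 1.41e-06, in resistant 2, a difference of -5.08 ± 0.16, adjusted p = 1.55e-09, between them. BMP5 (ENSG00000112175, chromosome 6, 55753645 to 55875564) was the single ligand that was lower in both, with 604, 701 and 1008 normalized counts in parental libraries, 30.4, 56.4 and 45.4 in resistant 1 and 14.4, 13.9 and 17.4 in resistant 2. It fell in both, with log2 fold changes of -4.11 ± 0.27, adjusted p = 3.36e-07, and -5.55 ± 0.27, adjusted p = 2.33e-08. BMP6 was called lower in resistant 1 (-0.46) and higher in resistant 2 (0.80). TGFB1 and TGFB2, the other TGF-beta ligands, did not pass the test in either population, with log2 fold changes from -0.11 to 0.28. Without parental replicate 3, TGFB2 was called higher in both (0.46 and 0.42, adjusted p = 0.00521 and 0.00731). Exons of TGFB2 overlap TGFB2-OT1 on the same strand over 26.6% of their length, so reads of these genes may be mixed.

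Per kilobase of exon, the ligand with the highest mean level in parental cells was BMP6 (1720.1 normalized counts per kilobase), followed by TGFB1 (1546) and TGFB2 (1230.3). The ranges of these 3 were not compared by a test. In resistant 2, BMP6 (2965), TGFB1 (1634), TGFB2 (1440.4) and BMP2 (1144) led, and in resistant 1 TGFB2 (1477), TGFB1 (1419), BMP6 (1244) and INHBA (828).

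**Figure D2:**
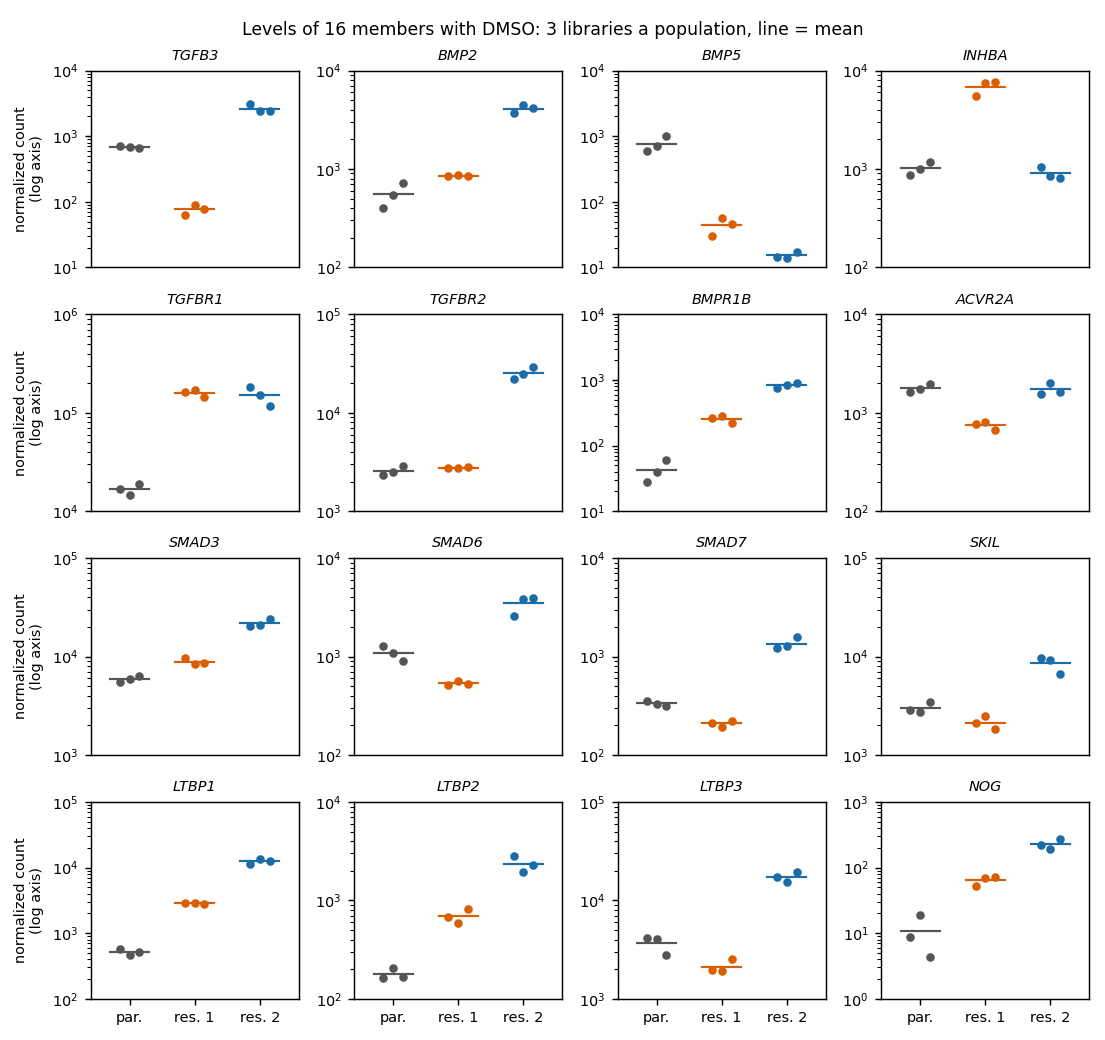
Normalized counts (log axis) of 16 of the genes in the 9 DMSO libraries; points are libraries (parental grey, resistant 1 orange, resistant 2 blue) and lines are group means, n = 3. TGFB3, SMAD6, SMAD7 and LTBP3 lie below parental cells in resistant 1 and above them in resistant 2, and TGFBR1 is high in both.

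Of the 10 receptors, 7 were higher and 1 lower in resistant 2, beside 32.1% and 29.8% of all genes. In resistant 1 these counts were 6 and 2, beside 29.3% and 26.6%. TGFBR1 (ENSG00000106799, chromosome 9, 99104038 to 99154192), the type I TGF-beta receptor kinase, stood at 16621, 14747 and 18757 normalized counts in parental libraries, 164605, 169611 and 144177 in resistant 1 and 182518, 153226 and 118181 in resistant 2. Every resistant library was above every parental one, and the resistant populations overlapped. The log2 fold changes were 3.26 ± 0.15, adjusted p = 1.61e-08, and 3.16 ± 0.15, adjusted p = 1.75e-08, and their difference was 0.09 ± 0.15 (adjusted p = 0.622). Its type II partner TGFBR2 (ENSG00000163513, chromosome 3, 30606502 to 30694142) was at 2348, 2515 and 2887 normalized counts in parental and 2735, 2764 and 2784 in resistant 1 libraries, which overlapped, against 22028, 24549 and 29162 in resistant 2. The change of TGFBR2 was 3.28 ± 0.12, adjusted p = 1.81e-09, in resistant 2 and 0.10 ± 0.12, adjusted p = 0.483, in resistant 1. Per kilobase, TGFBR1 thus stood at 23299.9 and TGFBR2 at 587 in resistant 1, and at 22108 and 5367 in resistant 2, against 2441 and 549 in parental cells. The difference of TGFBR2 between resistant 1 and resistant 2 was -3.18 ± 0.12, adjusted p = 3.68e-09.

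The type I BMP receptor BMPR1B had 27.6, 39.3 and 60.6 normalized counts in parental libraries, 260.4, 278 and 223 in resistant 1 and 761, 827 and 901 in resistant 2. The populations did not overlap, and the changes were 2.62 ± 0.25, adjusted p = 5.70e-06, and 4.32 ± 0.25, adjusted p = 7.83e-08. BMPR2, the type II BMP receptor, was at 5769, 4919 and 5950.0 normalized counts in parental, 7270.4, 8116 and 7106 in resistant 1 and 13811, 14446 and 13325 in resistant 2 libraries. ACVR1, a type I receptor of BMPs and activins, was at 3624, 3855 and 4369 normalized counts in parental, 5773, 6185 and 5197 in resistant 1 and 9912, 10039 and 9563 in resistant 2 libraries. For both genes every resistant library exceeded every parental one and resistant 2 was highest, at 1.33 and 1.32 on the log2 scale against 0.44 and 0.53 in resistant 1. ACVR1B, the type I activin receptor, was highest in resistant 1, with 3779, 3813 and 3939 normalized counts in parental, 8347, 8370.3 and 7860.3 in resistant 1 and 6247, 5714 and 5066 in resistant 2 libraries (log2 fold changes 1.09 and 0.56). The type II activin receptor ACVR2A fell in resistant 1, from 1635, 1753 and 1961 to 775, 814 and 675 normalized counts (-1.24 ± 0.13, adjusted p = 1.19e-05), and overlapped parental cells in resistant 2 at 1567, 1990.2 and 1646. The co-receptor TGFBR3 was higher in both (0.88 and 0.54), ACVR2B was lower in both (-0.87 and -0.51), and BMPR1A passed the test in neither (-0.21 in each), although both were called without parental replicate 2 (-0.30 and -0.29, adjusted p = 0.0381 and 0.0351). The call of ACVR2B in resistant 2 was lost with the compared groups alone and without parental replicate 2 or 3 or resistant 2 replicate 2 or 3 (adjusted p 0.0615 to 0.108). With the replicate number as a block over the resistant groups, TGFBR3 (0.34, adjusted p = 0.00967) and ACVR2B (-0.37, adjusted p = 0.0317) were called between resistant 1 and resistant 2, which they were not without it.

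Among the SMADs that carry the signal, 5 of 6 were lower in resistant 1 and 1 was higher, beside 26.6% and 29.3% of all genes. In resistant 2, 3 were higher and 1 lower, beside 32.1% and 29.8%. SMAD3 (ENSG00000166949, chromosome 15, 67063763 to 67195195), which transmits TGF-beta and activin signals, was the one that was higher in both: parental libraries had 5511, 5891 and 6352 normalized counts, resistant 1 9597, 8508 and 8621 and resistant 2 20491, 21192 and 24313. The populations did not overlap, and the changes were 0.59 ± 0.10, adjusted p = 0.000331, and 1.89 ± 0.10, adjusted p = 2.94e-08. SMAD9, a SMAD of the BMP branch, was at 576, 563 and 638 normalized counts in parental, 345, 362 and 330.3 in resistant 1 and 1261, 1449 and 1444 in resistant 2 libraries, below parental cells in the former and above them in the latter (-0.77 ± 0.12, adjusted p = 0.000227, and 1.22 ± 0.12, adjusted p = 5.04e-06). SMAD2 likewise was called lower in resistant 1 (-0.34) and higher in resistant 2 (0.44). SMAD1 (-0.73) and the common partner SMAD4 (-0.82) were lower in resistant 1 and did not pass in resistant 2 (0.05 and -0.26), and SMAD5 was lower in both (-0.57 and -0.36). Without parental replicate 3 or the third replicate of the resistant population, the calls of SMAD2 in resistant 1 (adjusted p 0.0546 to 0.0688) and of SMAD5 in resistant 2 (0.0509 to 0.0551) were lost. The block over the resistant groups put SMAD5 lower in resistant 1 than in resistant 2 (-0.21, adjusted p = 0.0222), which was not called without it.

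The inhibitory SMADs, which terminate signalling at the receptor or at SMAD4, were lower in resistant 1 and higher in resistant 2. SMAD6 (ENSG00000137834, chromosome 15, 66702228 to 66782848) stood at 1283, 1095 and 895 normalized counts in parental libraries, 513, 570.4 and 529 in resistant 1 and 2594, 3876 and 3978 in resistant 2. SMAD7 (ENSG00000101665, chromosome 18, 48919853 to 48952052) stood at 351, 333 and 318 normalized counts in parental, 210.1, 194 and 223 in resistant 1 and 1209, 1279 and 1577 in resistant 2 libraries. For both genes each resistant 1 library was below and each resistant 2 library above all parental ones. SMAD6 changed by -1.01 ± 0.18, adjusted p = 0.000631, in resistant 1 and 1.66 ± 0.18, adjusted p = 1.09e-05, in resistant 2, and SMAD7 by -0.68 ± 0.14, adjusted p = 0.00185, and 2.01 ± 0.14, adjusted p = 3.60e-07. SKIL, a SMAD-binding corepressor that is itself a TGF-beta target, had 2851, 2764 and 3453 normalized counts in parental, 2096, 2487 and 1828 in resistant 1 and 9769, 9196 and 6577 in resistant 2 libraries, with the same order of the populations (-0.50 and 1.48). The lower level of SKIL in resistant 1 lost its call without parental replicate 3 or resistant 1 replicate 1 or 3 (adjusted p 0.0606 to 0.0904). BAMBI (ENSG00000095739, chromosome 10, 28677342 to 28682939), a receptor-like decoy that lacks a kinase domain, rose in both populations, from 519.9, 493 and 473 normalized counts in parental to 1211, 1224 and 1375 in resistant 1 and 2884, 3896 and 4356 in resistant 2 libraries (1.36 ± 0.15, adjusted p = 1.60e-05, and 2.88 ± 0.15, adjusted p = 3.09e-08). The ubiquitin ligase SMURF2 also rose in both without overlap, with 2996, 2877 and 3493 normalized counts in parental, 7335, 8837 and 7811 in resistant 1 and 13729.9, 14158 and 13131 in resistant 2 libraries (1.36 and 2.13). SMURF1, a related ligase whose exons overlap TRRAP on the opposite strand over 11.7% of their length, was at 0.09 and -0.23. Its call in resistant 2 was lost under 10 alternatives (adjusted p 0.0525 to 0.122), namely the compared groups alone, the replicate block, no filter, and leaving out any parental replicate, resistant 1 replicate 1 or 2, or resistant 2 replicate 2 or 3.

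Latent TGF-beta binding proteins hold the secreted TGF-beta complex in the matrix. LTBP1 (ENSG00000049323, chromosome 2, 32946972 to 33399509) stood at 579.9, 471 and 523 normalized counts in parental, 2886, 2910.2 and 2778 in resistant 1 and 11556, 13361 and 12430.4 in resistant 2 libraries. LTBP2, a matrix protein of the same family that does not bind latent TGF-beta, stood at 162, 206 and 168 normalized counts in parental, 671, 592 and 824 in resistant 1 and 2850.1, 1948 and 2295 in resistant 2 libraries. Both were graded from parental through resistant 1 to resistant 2 with no overlap, at 2.45 ± 0.10, adjusted p = 8.75e-09, and 4.57 ± 0.10, adjusted p = 8.56e-11, for LTBP1 and 1.95 ± 0.18, adjusted p = 4.11e-06, and 3.71 ± 0.18, adjusted p = 2.03e-08, for LTBP2. LTBP3 was at 4148, 4091 and 2781 normalized counts in parental cells, below that in resistant 1 with 1945, 1906 and 2511 and above it in resistant 2 with 17293, 15314 and 19231 (-0.78 and 2.25). LTBP4 passed the test in neither (0.52 and 0.26), but in resistant 1 without parental replicate 2 (0.76, adjusted p = 0.0347). Of the secreted BMP antagonists, NOG (noggin) had 8.86, 19.2 and 4.33 normalized counts in parental, 53.0, 70.0 and 72.4 in resistant 1 and 225, 194 and 277 in resistant 2 libraries. The populations did not overlap, and its changes were 2.68 ± 0.41, adjusted p = 0.000189, and 4.50 ± 0.41, adjusted p = 2.56e-06. GREM1 (gremlin 1) had 0 reads in these libraries, as given above.

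The 4 target genes were all higher in resistant 2, beside 32.1% of all genes. ID1 and ID3 (ENSG00000117318, chromosome 1, 23557918 to 23559794), inhibitors of basic helix-loop-helix factors and direct BMP targets, overlapped between parental and resistant 1 cells and were higher in each resistant 2 library. ID1 had 4176, 7021 and 3762 normalized counts in parental, 3692, 4587 and 6694 in resistant 1 and 16811, 14886 and 18967 in resistant 2 libraries. ID3 had 5062, 5934 and 3322 normalized counts in parental, 4960.3, 4919 and 8030.3 in resistant 1 and 20532, 20644 and 28212 in resistant 2 libraries. The changes in resistant 2 were 1.81 ± 0.25, adjusted p = 6.75e-05, and 2.30 ± 0.24, adjusted p = 7.73e-06, and in resistant 1 0.01 and 0.32, neither called. ID2 stood at 4273, 2991 and 3116 normalized counts in parental cells, lower in resistant 1 at 1439, 1833 and 2366 and higher in resistant 2 at 6031, 7008 and 7538 (-0.89 and 1.00). TGFBI, a secreted matrix protein induced by TGF-beta, had the highest level per kilobase of the 42 genes in every DMSO group. Its normalized counts were 174062, 157079 and 178985 in parental, 287748, 254048 and 251330.4 in resistant 1 and 786646, 770125 and 714753 in resistant 2 libraries, without overlap (0.64 ± 0.09, adjusted p = 0.000112, and 2.16 ± 0.09, adjusted p = 6.43e-09). Between the resistant populations, the 4 targets were lower in resistant 1 by log2 differences of -1.80 for ID1, -1.89 for ID2, -1.98 for ID3 and -1.52 for TGFBI.

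A further 79 genes of the pathway were counted in 6 lists, of which 78 were matched by symbol. Over all genes, 32.1% were higher and 29.8% lower in resistant 2, and 29.3% and 26.6% in resistant 1. Among genes known to respond to TGF-beta or BMP, 11 of 15 tested were higher in resistant 2, whereas resistant 1 had 4 higher and 6 lower, with median log2 fold changes of 1.43 and -0.20. The BMP target ID4 was at 4.74 in resistant 2 and -4.17 in resistant 1. The BMP target ATOH8 was at 4.45 in resistant 2 and -0.23 in resistant 1. Of the genes that present or activate latent TGF-beta, 5 of 6 were higher in resistant 2 and 5 in resistant 1, where 1 was lower. Thrombospondin 1 (THBS1) led there with 5.30 in resistant 2 and 4.78 in resistant 1, while the integrin subunit ITGB8 was at 3.30 and -2.38. Other secreted antagonists were higher in 8 and lower in 3 of 11 in resistant 2, against 6 and 3 in resistant 1. BMPER, a secreted regulator of BMP ligands, was at 5.31 in resistant 2 and 4.63 in resistant 1. Other ligands and processing genes numbered 6 higher and 1 lower of 8 in resistant 2, and 4 and 1 in resistant 1, with GDF6 at 6.30 and 5.88. Of other receptors and co-receptors, 3 of 7 were higher in resistant 2, and resistant 1 had 4 higher and 2 lower. Intracellular regulators were higher in 9 and lower in 3 of 18 in resistant 2, and in 7 and 5 in resistant 1. The feedback inhibitors LDLRAD4 (8.82 and 3.38) and PMEPA1 (4.86 and 2.56), which bind receptor-regulated SMADs, rose in both. Of 2 related corepressors, TGIF2 fell in both (-3.82 and -1.72) and TGIF1 rose in both (0.81 and 0.55).

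In the presence of ATRA and decitabine, the populations were compared again among treated libraries. In resistant 2, 28 of 40 genes were higher and 5 lower than in treated parental cells, beside 38.7% and 32.6% of 20306 genes tested, and the median was 0.79 against 0.079 over all genes. In resistant 1, 17 were higher and 15 lower, beside 35.6% and 30.5%. Resistant 1 was lower than resistant 2 in 28 genes and higher in 6, beside 29.6% and 29.1%. The excess of TGFBR1 over parental cells was 2.16 ± 0.14, adjusted p = 8.40e-08, and 1.72 ± 0.14, adjusted p = 3.49e-07, and TGFBR2 was higher in resistant 2 (2.73 ± 0.08, adjusted p = 1.52e-10). TGFB1 was called higher in both treated resistant populations (0.54 and 0.81), as was SMAD2 (0.81 and 1.47). BMP2 was lower than in treated parental cells in resistant 1 (-1.25) and higher in resistant 2 (0.89), and INHBB was lower in both (-2.54 and -0.68). LTBP2 was lower in resistant 1 (-1.24) and did not pass in resistant 2 (-0.30, but -0.53 and called without treated replicate 1 of resistant 2, adjusted p = 0.00282), and BMP7 passed in neither (-0.22 and 0.12). Of the 4 targets, 3 were higher in resistant 2 and 2 in resistant 1, beside 38.7% and 35.6% of all genes. The other called target, ID2, was lower in both (-1.92 and -0.73). In resistant 1 the call of ID1 was lost without treated replicate 2 or 3 of parental or resistant 1 cells (limma, adjusted p 0.0566 to 0.0862). ID3 was called there only with the replicate block or without treated replicate 3 of either resistant population (limma, adjusted p 0.0081 to 0.0416). These are separate fits to separately normalized tables, and the change of a population's position between treatments is tested below on CPM.

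More of the genes responded to ATRA and decitabine in parental cells than in the resistant populations, and the same held over all genes tested. In parental cells, 23 of 40 genes rose and 10 fell, beside 31.7% and 32.9% of 20098 genes tested, with a median log2 change of 0.46 in CPM + 1 against -0.012 over all genes. In resistant 1, 16 rose and 5 fell (15.2% and 12.7% of all genes), and in resistant 2, 5 rose and 9 fell (10.8% and 8.42%). By role, the inhibitors (5 of 6), the latency proteins (4 of 4) and the targets (4 of 4) rose in parental cells, while the receptors were divided (2 higher and 3 lower of 10). Of the inhibitors, SMURF1 (0.17) lost its call without parental DMSO replicate 1 or 2 or any treated parental replicate (adjusted p 0.0511 to 0.105). In resistant 2, 1 of the 4 latency proteins rose and 0 of the 4 targets were called (limma; 0 at an unadjusted p under 0.05 and 0 with edgeR). The count of 5 genes that rose in resistant 2 was 8 without its treated replicate 1 and 3 without its treated replicate 2, and the count of 5 that fell in resistant 1 was 3 without its treated replicate 2. The pseudocount of 1 CPM compresses the log2 changes of low genes, so folds of genes under a few CPM are larger than printed.

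**Figure D3:**
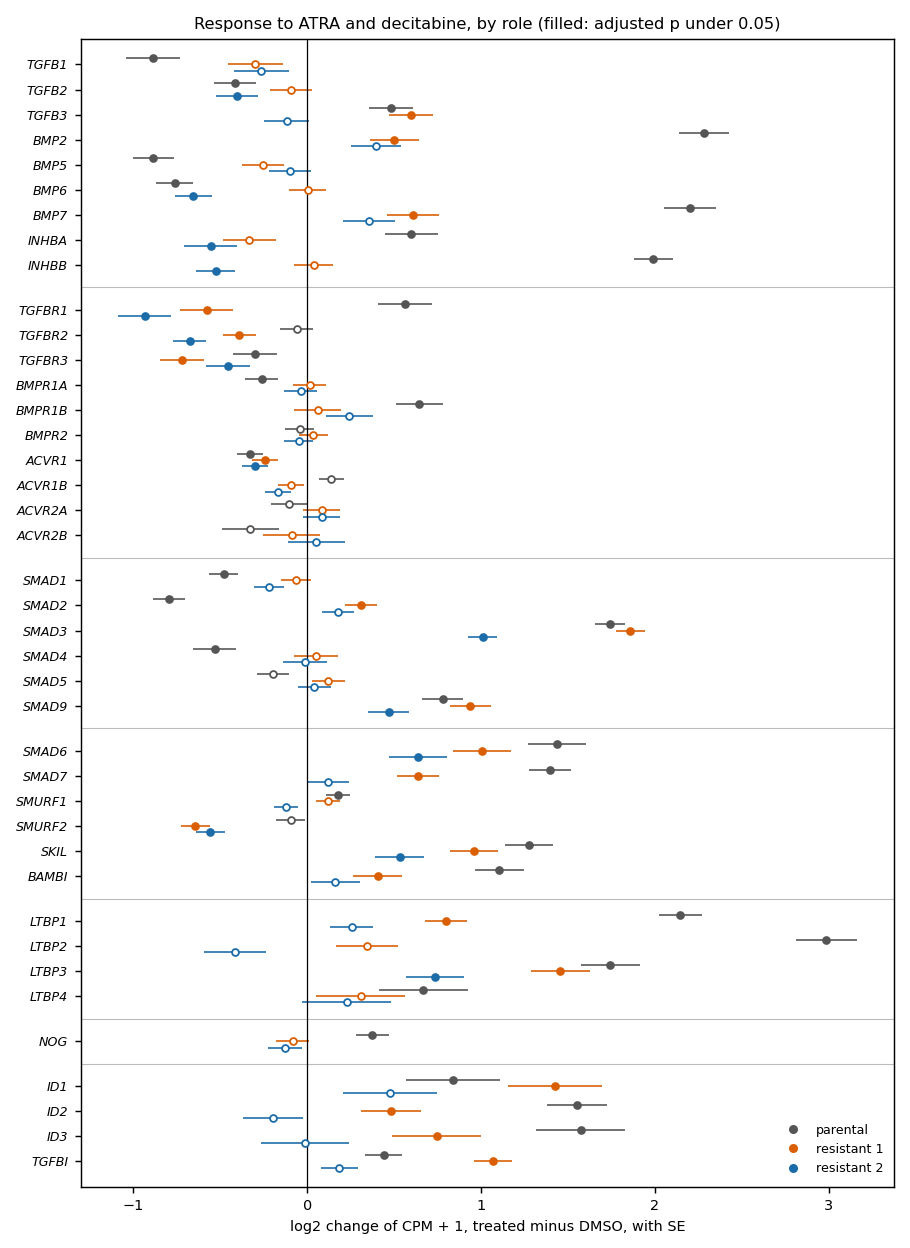
Log2 change of CPM + 1, treated minus DMSO, with its SE (horizontal axis) for 40 genes (rows, grouped by role) in parental (grey), resistant 1 (orange) and resistant 2 (blue) cells, n = 3 libraries a group; filled points passed an adjusted p of 0.05. The grey points of the inhibitors, latency proteins and targets lie to the right of 0, apart from SMURF2 (-0.10), with LTBP2 farthest, at 2.99.

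Among ligands, BMP2 rose in parental cells from 3.47, 4.74 and 6.21 CPM with DMSO to 24.2, 27.4 and 28.8 CPM with treatment, without overlap (2.28 ± 0.14, adjusted p = 3.87e-10). In resistant 1 it went from 7.17, 7.29 and 7.21 to 9.97, 11.0 and 10.9 CPM (0.50 ± 0.14, adjusted p = 0.0146), and in resistant 2 from 31.2, 37.0 and 35.4 to 38.0, 51.5 and 48.7 CPM (0.40 ± 0.14, adjusted p = 0.0624, not called). Treated parental cells thus stood above treated resistant 1 cells, the reverse of their order with DMSO. The response of BMP2 was smaller than in parental cells by 1.78 in resistant 1 (adjusted p = 2.26e-06) and by 1.89 in resistant 2 (adjusted p = 9.22e-07). The call of the rise in resistant 1 was lost without its treated replicate 2 (adjusted p = 0.0552). That in resistant 2 was called with the replicate block and without parental DMSO replicate 1 or 3 or treated replicate 1 of resistant 2 (adjusted p 0.0148 to 0.0247). BMP7 went from 0.576, 0.728 and 0.424 to 7.28, 5.92 and 5.56 CPM in parental cells (2.20 ± 0.15, adjusted p = 1.28e-09), from 3.02, 2.81 and 3.09 to 4.55, 5.47 and 5.17 CPM in resistant 1 (0.61) and from 3.51, 4.75 and 5.99 to 5.06, 6.43 and 7.44 CPM in resistant 2 (0.35, not called, but called without DMSO replicate 3 or treated replicate 1 of resistant 2, adjusted p 0.0238 to 0.0413). With treatment the parental libraries overlapped resistant 2 and lay above resistant 1. INHBB, at 0.0516, 0.0837 and 0.123 CPM in parental cells with DMSO, reached 3.01, 3.46 and 3.49 CPM with treatment (1.99 ± 0.11, adjusted p = 1.12e-10). It was at 0.430, 0.517 and 0.544 CPM with DMSO and 0.469, 0.626 and 0.512 CPM with treatment in resistant 1 (0.04 ± 0.11, adjusted p = 0.863, not called) and fell from 2.23, 3.62 and 3.93 to 1.79, 1.95 and 1.98 CPM in resistant 2 (-0.53 ± 0.11, adjusted p = 0.00290). INHBA was called higher in parental cells (0.60) and lower in resistant 2 (-0.56), the latter call lost without resistant 2 DMSO replicate 1 or treated replicate 3 (adjusted p 0.0707 to 0.0879). TGFB1 fell in parental cells (-0.89), as did BMP6 (-0.76), TGFB2 (-0.41) and BMP5 (-0.88). TGFB3 rose in parental (0.48) and resistant 1 cells (0.60).

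On log2(CPM + 1), no receptor passed a change of 1 in any population. BMPR1B in parental cells, at 0.241, 0.343 and 0.528 CPM with DMSO and 0.999, 1.21 and 1.196 CPM with treatment, did so at a pseudocount of 0.1 CPM (1.43) and with edgeR (1.68). TGFBR1 rose in parental cells (0.56 ± 0.15, adjusted p = 0.00424) and fell in resistant 1 (-0.58 ± 0.15, adjusted p = 0.00998) and resistant 2 (-0.94 ± 0.15, adjusted p = 0.000368). In CPM it went from 145, 129 and 163 to 231, 208 and 206 in parental, from 1406, 1438 and 1229.9 to 1016, 825 and 889 in resistant 1 and from 1523, 1277 and 1003 to 786, 687 and 514 in resistant 2 libraries. Within each population the treated and DMSO libraries did not overlap, and treated resistant cells still stood above treated parental cells. The responses differed from that of parental cells by -1.14 ± 0.22, adjusted p = 0.000463, and -1.50 ± 0.22, adjusted p = 2.71e-05. The fall in resistant 1 lost its call without its treated replicate 2 (adjusted p = 0.0530). TGFBR2 fell in both resistant populations (-0.39 and -0.68) and was at -0.06 in parental cells. BMPR1B rose in parental cells (0.64) and was not called in resistant 1 (0.06) or resistant 2 (0.24, called without treated replicate 1, adjusted p = 0.0257), and ACVR1 fell in all 3 (-0.33, -0.24 and -0.30). In resistant 1 the call of ACVR1 was lost without DMSO replicate 1 or 2 or treated replicate 2 or 3 (adjusted p 0.0728 to 0.118). The other 6 receptors lay between -0.72 (TGFBR3 in resistant 1, which fell) and 0.14 (ACVR1B in parental cells, not called, but called with edgeR and with other size factors, adjusted p 0.0297 to 0.0429). TGFBR3 was at -0.30 in parental and -0.45 in resistant 2 cells, and BMPR1A at -0.26 in parental cells. The first of these calls was lost under 13 alternatives (adjusted p 0.0508 to 0.254), namely no filter, edgeR, other size factors, and leaving out DMSO replicate 3 of parental or resistant 1 cells, DMSO replicate 2 or treated replicate 3 of resistant 2, or any treated replicate of parental or resistant 1 cells. The second was lost without DMSO replicate 2 or 3 or treated replicate 1 or 3 of resistant 2 (0.0504 to 0.0739), and the third with edgeR, with other size factors and without parental DMSO replicate 1 or 3 or treated replicate 2 or 3 (0.0529 to 0.097).

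SMAD3 was the SMAD that rose by the most in each population. It went from 48.1, 51.5 and 55.3 to 195, 161 and 169.6 CPM in parental, from 82.0, 72.1 and 73.5 to 282, 284 and 267 CPM in resistant 1 and from 171, 177 and 206 to 387, 350.1 and 378 CPM in resistant 2 libraries. Treated and DMSO libraries did not overlap in any population, and the changes were 1.74 ± 0.09, adjusted p = 1.83e-11, in parental, 1.86 ± 0.09, adjusted p = 1.46e-10, in resistant 1 and 1.01 ± 0.09, adjusted p = 4.25e-07, in resistant 2. The response of resistant 2 was smaller than that of parental cells (-0.73 ± 0.12, adjusted p = 9.30e-05) and than that of resistant 1 (0.85 ± 0.12, adjusted p = 0.000322, as resistant 1 minus resistant 2). SMAD2 fell in parental cells (-0.79) and rose in resistant 1 (0.31), and its response exceeded that of parental cells in both resistant populations (1.10 ± 0.13, adjusted p = 3.71e-06, and 0.97 ± 0.13, adjusted p = 1.13e-05). The rise in resistant 1 lost its call without DMSO replicate 3 or treated replicate 1 (adjusted p 0.0915 to 0.0923). SMAD9 rose in all 3 populations (0.78, 0.94 and 0.47), a call lost in resistant 2 without its treated replicate 2 (adjusted p = 0.0547). SMAD4 and SMAD1 fell in parental cells (-0.53 and -0.48), and SMAD5 was not called in any population.

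The inhibitors SMAD6, SMAD7, SKIL and BAMBI rose in parental cells. SMAD6 went from 11.2, 9.56 and 7.80 to 28.0, 28.3 and 25.5 CPM there (1.44 ± 0.17, adjusted p = 9.72e-07), from 4.38, 4.83 and 4.51 to 8.47, 11.1 and 11.2 CPM in resistant 1 (1.00) and from 21.7, 32.3 and 33.8 to 36.2, 48.1 and 53.1 CPM in resistant 2 (0.64). SMAD7 went from 3.06, 2.91 and 2.77 to 10.7, 9.08 and 8.23 CPM in parental (1.40 ± 0.12, adjusted p = 2.42e-08), from 1.79, 1.64 and 1.90 to 2.83, 3.92 and 3.28 CPM in resistant 1 (0.64) and from 10.1, 10.7 and 13.4 to 12.0, 11.7 and 13.4 CPM in resistant 2 (0.12, not called). For SMAD6 and SMAD7 the treated libraries stood above the DMSO ones in parental and resistant 1 cells, and treated resistant 1 libraries were below treated parental ones. SKIL went from 24.9, 24.1 and 30.1 to 60.5, 70.7 and 64.2 CPM in parental (1.28), from 17.9, 21.1 and 15.6 to 36.8, 39.4 and 32.4 CPM in resistant 1 (0.96) and from 81.5, 76.6 and 55.8 to 101, 115 and 92.1 CPM in resistant 2 (0.53), with no overlap within a population. BAMBI went from 4.54, 4.31 and 4.12 to 10.3, 10.8 and 10.2 CPM in parental cells (1.10 ± 0.14, adjusted p = 2.67e-06), from 10.3, 10.4 and 11.7 to 13.5, 14.3 and 16.1 CPM in resistant 1 (0.40) and from 24.1, 32.5 and 37.0 to 27.8, 35.7 and 41.0 CPM in resistant 2 (0.16, not called). In resistant 2, where 10.8% of all genes rose, 4 of 6 inhibitors had no rise that was called. SMURF2 fell in both resistant populations (-0.64 and -0.56). Calls lost without a library were those of BAMBI in resistant 1 (without its DMSO replicate 1 or 2, its treated replicate 2 or 3, or any treated parental replicate, and with no filter, adjusted p 0.0511 to 0.14), of SKIL in resistant 2 (DMSO replicate 3 or treated replicate 2, 0.0573 to 0.0591) and of SMAD6 in resistant 2 (DMSO replicate 1 or treated replicate 3, 0.0645 to 0.069).

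On log2(CPM + 1), LTBP2 had the largest parental response of the 40 genes, from 1.42, 1.80 and 1.46 to 21.5, 17.7 and 18.7 CPM (2.99 ± 0.18, adjusted p = 2.19e-10). It went from 5.73, 5.02 and 7.03 to 7.37, 7.19 and 8.68 CPM in resistant 1 (0.34 ± 0.18, adjusted p = 0.172, not called) and from 23.8, 16.2 and 19.5 to 20.2, 11.1 and 13.5 CPM in resistant 2 (-0.41 ± 0.18, adjusted p = 0.123, not called). At a pseudocount of 0.1 CPM the parental response of INHBB (4.21) exceeded that of LTBP2 (3.55), as it did with edgeR (5.33 against 3.68). Without treated replicate 1 of resistant 2, LTBP2 fell in that population (-0.64, adjusted p = 0.00877). Treated parental cells reached the range of resistant 2, and the responses of the resistant populations were smaller by 2.64 (adjusted p = 3.33e-07) and 3.40 (adjusted p = 1.22e-08). LTBP1 rose from 5.07, 4.12 and 4.55 to 29.1, 21.9 and 20.6 CPM in parental (2.15 ± 0.12, adjusted p = 1.33e-10) and from 24.7, 24.7 and 23.7 to 50.6, 41.6 and 37.9 CPM in resistant 1 (0.80), and was at 96.4, 111 and 106 CPM with DMSO and 122, 139.7 and 114 CPM with treatment in resistant 2 (0.26, not called). Treated parental cells came to the DMSO level of resistant 1. LTBP3 rose in all 3 populations, from 36.2, 35.7 and 24.2 to 123, 99.9 and 102 CPM in parental (1.74), from 16.6, 16.2 and 21.4 to 43.9, 50.5 and 59.5 CPM in resistant 1 (1.46) and from 144, 128 and 163 to 265, 193 and 272 CPM in resistant 2 (0.73). LTBP4 rose in parental cells (0.67), a call lost with no filter and without parental DMSO replicate 3 or treated replicate 1 or 3 (adjusted p 0.0577 to 0.193). NOG rose in parental cells (0.37), where it stayed under 1 CPM, and was not called in the resistant ones (-0.08 and -0.13).

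**Figure D4:**
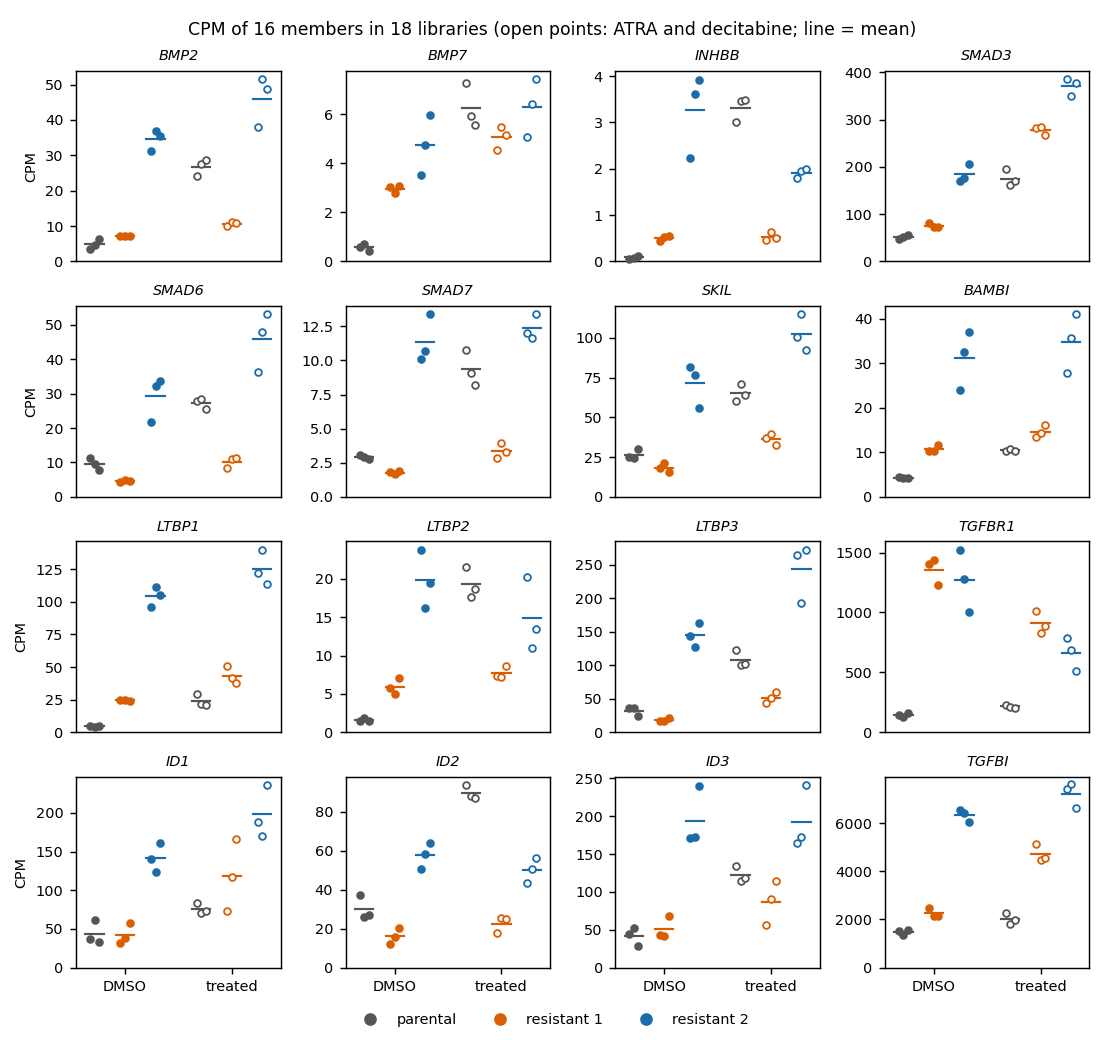
CPM (vertical axis, from 0) of 16 of the genes in 18 libraries; filled points are DMSO and open points treated libraries, in parental (grey), resistant 1 (orange) and resistant 2 (blue) cells, with lines at group means, n = 3. The treated parental libraries of BMP7, INHBB and LTBP2 reach the level that resistant 2 has with DMSO.

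All 4 targets rose in parental cells and in resistant 1, and in resistant 2 their changes were not called (limma, adjusted p from 0.277 to 0.9901). For ID1 and TGFBI every treated resistant 2 library nevertheless stood above every DMSO library of that population, while for ID2 and ID3 the libraries overlapped. ID1 went from 36.5, 61.3 and 32.8 to 83.5, 70.4 and 73.4 CPM in parental (0.84 ± 0.27, adjusted p = 0.0120), from 31.5, 38.9 and 57.1 to 72.7, 118 and 166 CPM in resistant 1 (1.43 ± 0.27, adjusted p = 0.000774) and from 140.3, 124 and 161 to 188, 169.6 and 237 CPM in resistant 2 (0.47). The treated libraries of resistant 1 were spread widely, all above their DMSO range. ID2 went from 37.3, 26.1 and 27.1 to 93.8, 87.9 and 86.8 CPM in parental (1.55 ± 0.17, adjusted p = 5.34e-07), from 12.3, 15.5 and 20.2 to 17.5, 25.2 and 25.1 CPM in resistant 1 (0.48) and from 50.3, 58.4 and 63.98 to 43.5, 50.5 and 56.2 CPM in resistant 2 (-0.20). Treated parental cells had the highest ID2 of the 6 groups. ID3 went from 44.2, 51.9 and 28.9 to 135, 115 and 119 CPM in parental (1.57 ± 0.26, adjusted p = 4.10e-05), from 42.4, 41.7 and 68.5 to 56.6, 90.2 and 114 CPM in resistant 1 (0.74), where the treated and DMSO libraries overlapped, and from 171, 172 and 239 to 165, 173 and 241 CPM in resistant 2 (-0.01). TGFBI went from 1521, 1372 and 1559 to 2264, 1815 and 1979.6 CPM in parental (0.44), from 2458, 2153 and 2144 to 5155, 4474 and 4541 CPM in resistant 1 (1.07 ± 0.11, adjusted p = 1.21e-06) and from 6565, 6418 and 6067 to 7426, 7620.0 and 6619 CPM in resistant 2 (0.18). Its response in resistant 1 was larger than in parental cells (0.63) and than in resistant 2 (0.88). Calls of the targets that were lost without a library were those of ID1 in parental cells (without parental DMSO replicate 3, adjusted p = 0.063), of ID3 in resistant 1 (DMSO replicate 1 or 2, treated replicate 2 or 3, and with no filter, 0.0875 to 0.179) and of ID2 in resistant 1 (no filter and 9 single libraries, namely its DMSO replicates 1 and 2, its treated replicates 2 and 3, all treated parental replicates, and resistant 2 DMSO and treated replicate 2, 0.0561 to 0.232).

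The response was smaller (or more negative) in resistant 2 than in parental cells for 21 of 40 genes and larger (or less negative) for 4, beside 24.7% and 23.9% of all genes. In resistant 1 it was smaller (or more negative) for 13 and larger (or less negative) for 7, beside 22.1% and 21%. These comparisons share the parental libraries. Of the other pathway lists, the response genes of TGF-beta and BMP rose in 11 and fell in 3 of 14 in parental cells, against 5 and 1 in resistant 1 and 3 and 2 in resistant 2. The shares of all genes that rose and fell were 31.7% and 32.9% in parental cells, 15.2% and 12.7% in resistant 1, and 10.8% and 8.42% in resistant 2. All 6 inhibitors were among the smaller ones in resistant 2 (SMURF1 not without treated replicate 3 of resistant 2, adjusted p = 0.0552), with 3 of 4 latency proteins and 2 of 4 targets. Between the resistant populations, the response was larger (or less negative) in resistant 1 for 4 genes (TGFB3, BMP6, SMAD3 and TGFBI), beside 3.51% of all genes. It was smaller (or more negative) for 0 (limma, with 0 at an unadjusted p under 0.05 and 0 with edgeR), beside 1.7% of all genes. The difference of TGFB3 lost its call without any of 6 single libraries (replicate 1 of both resistant DMSO groups, treated replicate 1 or 2 of resistant 1, and treated replicate 2 or 3 of resistant 2, adjusted p 0.0579 to 0.079).

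The promoters of the genes that rose and fell in parental cells were counted for CG dinucleotides. The median was 24 CG (range 1 to 46) for the 20 genes with a promoter sequence that rose, 23 for the 10 that fell and 26 for the 7 that were not called, given as a description without a test. For resistant 2 against parental cells with DMSO, the median was 27 CG for 26 higher genes, 26 for 4 lower genes and 10.0 for 8 that were not called. INHBB and BAMBI, with the CG-rich promoters printed above, rose with treatment in parental cells, and so did INHBA, whose printed promoter has a single CG. BMP5, the other gene with a CG-poor printed promoter, fell (-0.88).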

How the data were processed

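The submitters' processing notes name STAR, featureCounts and DESeq2 for the alignment to GRCh38, the counting and the normalization of the 18 libraries, with neither versions nor a strand setting given in the sources used here. Libraries were made with a stranded mRNA kit, per the labels' protocols. Because the strand setting is unknown, reads of overlapping genes on opposite strands may be mixed. Exons of 14 of the 42 genes overlap another gene, 2 of them over more than 10% of their length.

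In the table the authors deposited for DMSO, the unit is a normalized signal (normalized counts), and its whole reads were recovered per library: 100% of its values were whole within 0.01 of a read. The deposited treated table holds another unit, digits without decimal points. Each value was restored by the power of 10 that gives whole reads (tolerance 0.0001) at a likely level over the 3 replicates of each group, with dispersions learned from the DMSO reads, and a gene was used at a posterior of at least 99%. Of 24974 genes at the filter, 20306 (81.3%) were restored, namely 41.4% of those with a mean below 30, 75.2% between 30 and 100, 90.7% between 100 and 1000 and 98.8% above. The likely level was weighted towards the level of the same population with DMSO. When decimal points were taken out of the DMSO table on purpose, 61 of 18122 restored genes had a wrong value. That test used no known level, so its errors are not those of the treated values. Of the treated genes, 19611 were restored both with and without the DMSO levels, and 0 of them differed.

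Populations were compared within a table by limma 3.58.1 (trend, R 4.3.3) on log2(normalized count + 1), with 3 groups in 1 fit and a filter of 10 normalized counts reached by 3 or more of the 9 libraries. Responses and their differences were tested on log2(CPM + 1) of the recovered reads of 18 libraries, scaled by TMM (edgeR 4.0.16), over 20098 genes with at least 0.1 CPM in at least 3 libraries. P-values were adjusted by Benjamini-Hochberg over all genes tested and called under 0.05. Count tests on recovered reads (edgeR) served only as an alternative. The other alternatives were the compared groups alone, a replicate block, other filters, pseudocounts and size factors, and leaving out each library. Under DMSO, deviations of same-numbered libraries of resistant 1 and resistant 2 correlated at 0.16, 0.65 and 0.61. Those of parental cells with either resistant population correlated at -0.68 to -0.21. Differently numbered libraries reached similar values, such as 0.42 for resistant 1 number 1 with resistant 2 number 2. Parental number 2 with resistant 1 number 3 reached 0.62. Whether the numbers mark pairs therefore cannot be told from these values.

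The members and lists were chosen with earlier results of these data known. Values in every library are given for 29 genes: those called at a log2 change of at least 1 between a resistant population and parental cells under DMSO with a mean of at least 100 normalized counts in a group, or in a response. Other pathway genes named were, per list and direction, up to 3 called genes with the largest change in resistant 2. Some genes of these lists are not reported here. Genes were placed by GENCODE 29, and sequences came from RefSeq.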

Additional observations from a re-analysis of the deposited data

Results flagged for a closer look

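The genes below had a response to ATRA and decitabine that differed between populations by a test of the difference itself (limma on log2(CPM + 1), Benjamini-Hochberg over 20098 genes). Values are the difference of log2 changes.

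In resistant 1, the response was smaller, or more negative, than in parental cells for LTBP2 (-2.64), INHBB (-1.95), BMP2 (-1.78), BMP7 (-1.59), LTBP1 (-1.35), TGFBR1 (-1.14), ID2 (-1.07), INHBA (-0.93), SMAD7 (-0.76), BAMBI (-0.70), BMPR1B (-0.58), SMURF2 (-0.55) and NOG (-0.46). It was larger, or less negative, for SMAD2 (1.10), BMP6 (0.77), TGFBI (0.63), BMP5 (0.63), TGFB1 (0.59), SMAD4 (0.58) and SMAD1 (0.42). The highest adjusted p among these was 0.0416.

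In resistant 2, the response was smaller, or more negative, than in parental cells for LTBP2 (-3.40), INHBB (-2.52), LTBP1 (-1.89), BMP2 (-1.89), BMP7 (-1.84), ID2 (-1.75), ID3 (-1.59), TGFBR1 (-1.50), SMAD7 (-1.28), INHBA (-1.15), LTBP3 (-1.01), BAMBI (-0.94), SMAD6 (-0.80), SKIL (-0.75), SMAD3 (-0.73), TGFBR2 (-0.62), TGFB3 (-0.60), NOG (-0.50), SMURF2 (-0.46), ACVR1B (-0.31) and SMURF1 (-0.30). It was larger, or less negative, for SMAD2 (0.97), BMP5 (0.79), TGFB1 (0.62) and SMAD4 (0.52). The highest adjusted p was 0.0282. These differences and those of resistant 1 use the same parental libraries.

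The response was larger, or less negative, in resistant 1 than in resistant 2 for TGFBI (0.88), SMAD3 (0.85), TGFB3 (0.72) and BMP6 (0.66), with adjusted p up to 0.0274. For 2 of these genes the populations also stood on opposite sides of parental cells with DMSO: TGFB3 and BMP6 were lower than parental in resistant 1 and higher in resistant 2.

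Several of these differences were lost under an alternative. That of TGFB1 in resistant 1 was lost under 11 (adjusted p 0.0514 to 0.117: no filter, edgeR, other size factors, parental DMSO replicate 1 or 2, resistant 1 DMSO replicate 1 or 2, any treated parental replicate, resistant 1 treated replicate 3). In resistant 2 it was lost under 7 (0.0531 to 0.0823: no filter, parental DMSO replicate 1 or 2, resistant 2 DMSO replicate 2, parental treated replicate 2, resistant 2 treated replicate 1 or 3). SMAD4 in resistant 2 was lost under 6 (0.0507 to 0.0619: edgeR, other size factors, replicate 3 of parental or resistant 2 DMSO cells, parental treated replicate 1, resistant 2 treated replicate 2). BMPR1B in resistant 1 was lost without parental DMSO replicate 1 or resistant 1 treated replicate 3 (0.0543 to 0.0569). In resistant 2, ACVR1B was lost without DMSO replicate 1 or treated replicate 3 (0.0629 to 0.0685), and SMURF1 without treated replicate 3 (0.0552). TGFB3 between the resistant populations is described above. BMP5 stood under 1 CPM in every resistant library, and its differences depended on the pseudocount: at 0.1 CPM they were not called (adjusted p = 0.708 in resistant 1 and 0.178 in resistant 2), and with edgeR they changed sign.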

How the results depend on the processing

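Of 483 tests of single genes, 315 were called, and 276 of these calls were kept under every alternative run, 300 when leaving out single libraries is set aside. These tests pool comparisons that share libraries, and the shares of all genes called are given with each comparison above. The pooled count describes the alternatives and is not a result about these genes. A further 46 tests that were not called were called under at least 1 alternative. The sign changed in 2 tests, both with edgeR on the reads: the difference of the BMP5 response from parental cells was -0.31 for resistant 1 and -0.24 for resistant 2 (adjusted p = 0.517 and 0.711). The cause was not tested. The number of genes lower in resistant 2 than in parental cells with DMSO was 4, and 2 with the compared groups alone. The number with a larger, or less negative, response in resistant 2 than in parental cells was 4, and 2 with edgeR. Leaving out single libraries gave 1 to 4 for the former count, 29 to 30 for genes higher in resistant 2, 18 to 19 higher and 13 to 16 lower in resistant 1, 21 to 23 higher and 8 to 11 lower in the parental response, 12 to 16 higher and 3 to 6 lower in the response of resistant 1, and 3 to 8 higher and 6 to 9 lower in that of resistant 2. With the replicate block, the counts were 29 higher and 3 lower in resistant 2 and 18 higher and 15 lower in resistant 1 with DMSO, and 23 higher and 10 lower in the parental response. The block over the resistant groups alone, added after the data were seen, gave 5 genes higher and 31 lower in resistant 1 than in resistant 2 with DMSO, against 4 and 29. The replicate block over all groups of a fit ended the calls of SMURF1 in resistant 2 with DMSO (limma, adjusted p = 0.068) and TGFBR2 in treated resistant 1 (0.0567). It added calls of ID3 in treated resistant 1 (0.0286), of SMAD1 (0.0345) and BMP2 (0.0148) in the response of resistant 2, and of TGFBR3 (0.0272), TGFBR2 (0.0227), SMAD1 (0.0364) and INHBB (0.0163) in differences of responses. Low genes limit the treated values most: BMP4 and GREM1 have no treated value here. INHBB rested on 29 reads over the parental DMSO libraries and BMP5 on 20 over the treated resistant 2 libraries.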
